A study of Mus musculus with 25 samples.

Results

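The proteasome subunit genes are the 48 mouse genes whose symbol is Psma, Psmb, Psmc, Psmd, Psme, Psmf or Psmg followed by a number and whose mean normalized count reached 10 in at least 1 of 4 comparisons, out of 24421 symbols in the tables. By role they comprised 8 core alpha subunits, 7 constitutive core beta subunits, the thymus beta subunit Psmb11, 5 immunoproteasome genes, 6 regulatory ATPases, 11 regulatory non-ATPase subunits, 3 chaperones of regulatory particle assembly, 3 other activators or inhibitors and 4 chaperones of core assembly. The minimum was met by 48 of them in males and 47 in females weaned onto the hypercaloric diet, and by 46 in males and 47 in females weaned onto regular chow. Just above and below it lay Psma8, the testis alpha subunit, and Psmb11, the beta subunit of the thymic cortex. In the authors' deposited tables the mean normalized count of Psma8 was 11.0, 11.6, 4.61 and 16.2 in HCD-weaned males, HCD-weaned females, RD-weaned males and RD-weaned females, and that of Psmb11 was 11.5, 5.00, 1.31 and 5.25.

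The proteasome is the chamber in which cells degrade proteins that carry a ubiquitin chain. Its core is built of stacked rings of alpha and beta subunits, 3 kinds of which cut peptide bonds, and a regulatory particle of ATPases and non-ATPase subunits binds, unfolds and feeds in the substrate. Under interferon, inducible beta subunits replace the constitutive cutting subunits and the Psme1 and Psme2 cap binds the core, which alters the peptides made for antigen presentation. In the brain, neurons rely on proteasomes for protein turnover at synapses, and microglia are a known source of the inducible subunits.

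RNA was sequenced from the hypothalamus, the brain region that governs feeding and hormone release, of wild-type C57BL/6J mice aged 3 months. Dams ate a hypercaloric diet with 52% fat and much sucrose (HCD) or a regular chow diet (RD), starting 1 month before mating and continuing through lactation, and pups went onto HCD or RD at weaning. All 25 samples shared genotype, strain, age and tissue. They formed 8 groups, written as dam's diet, own diet and sex: HCD-HCD Male, RD-HCD Male, HCD-HCD Female, RD-HCD Female, HCD-RD Male, HCD-RD Female and RD-RD Female with 3 samples each, and RD-RD Male with 4. Each comparison set offspring of HCD dams against those of RD dams of the same sex and weaning diet, and no sample serves in more than 1 of them. The labels name neither litters nor dams, so p-values measure only the spread between these samples, which may be shared within litters. For RD-weaned males the deposited table of counts had 6 library columns where the labels list 7 samples. Library columns could not be tied to samples, so values of single samples and depth per sample are not given, and each value below is the authors' estimate over a comparison. Positive log2 fold changes are taken to mean more RNA where the dam ate HCD. For HCD-weaned mice the labels call the RD-dam group the control. For RD-weaned mice this reading rests on the order of the groups, and all signs of such a table would turn together if it were wrong.

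Upstream sequence is shown for 4 genes on which the results turn: Psmb5, positive in all 4 comparisons as signed here; Psmb10, 1 of the 2 genes that passed the test; Psmd4, positive with an unadjusted p under 0.05 in both sexes of HCD-weaned mice; and Psmd11, negative in all 4 as signed here. RefSeq promoters (build GRCm38.p6) were matched by symbol for 40 of the 48 genes and searched over the 250 bases before the RefSeq start. Psmb7, the other gene that passed the test, and Psmc3 were among those without a match. Bases inside a GENCODE exon of the gene were left out of what is shown. Each line runs 5′ to 3′ toward the start of its gene, and capitals mark a motif match on either strand. The windows are chr14:54618023-54618245 on the minus strand for Psmb5, chr8:105938445-105938642 on the minus strand for Psmb10, chr3:95042615-95042864 on the minus strand for Psmd4, and chr11:80428365-80428614 on the plus strand for Psmd11.
Psmb5: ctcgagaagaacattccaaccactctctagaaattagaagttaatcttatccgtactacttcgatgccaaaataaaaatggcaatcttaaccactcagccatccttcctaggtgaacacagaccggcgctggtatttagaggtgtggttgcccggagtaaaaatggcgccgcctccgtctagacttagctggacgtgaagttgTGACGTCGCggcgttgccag
Psmb10: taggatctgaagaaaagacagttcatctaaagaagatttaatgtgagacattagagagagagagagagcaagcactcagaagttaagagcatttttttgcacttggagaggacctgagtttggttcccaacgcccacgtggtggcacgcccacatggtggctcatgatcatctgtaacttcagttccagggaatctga
Psmd4: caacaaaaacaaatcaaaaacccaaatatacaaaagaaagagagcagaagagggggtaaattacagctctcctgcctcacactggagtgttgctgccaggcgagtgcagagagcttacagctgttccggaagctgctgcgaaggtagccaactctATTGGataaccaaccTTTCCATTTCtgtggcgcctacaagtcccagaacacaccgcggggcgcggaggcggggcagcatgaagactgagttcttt
Psmd11: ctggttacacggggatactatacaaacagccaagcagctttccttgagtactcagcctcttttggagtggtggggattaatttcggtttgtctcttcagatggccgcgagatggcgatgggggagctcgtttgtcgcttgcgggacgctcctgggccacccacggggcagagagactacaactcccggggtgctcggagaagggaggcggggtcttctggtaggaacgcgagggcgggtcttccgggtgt

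Motifs were searched on both strands. The antioxidant response element core TGACNNNGC, to which Nfe2l1 and Nfe2l2 with small Maf proteins bind, occurred upstream of 5 of 40 genes (12.5%), namely Psmb5, Psmb6, Psmc6, Psmd12 and Psmd9, against 11.9% of the 11809 promoters of tested genes and 10.1% of all 27025 promoters, over the same length. In Psmb5 it lay from -47 to -39 relative to the RefSeq start. The interferon-stimulated response element core (GAAA on either side of any 2 bases) occurred in 3 of 40 (7.50%), Psmb3, Psmd4 and Psmd9, against 2.52% of those of tested genes and 3.04% of all. CCAAT occurred in 14 of 40 (35.0%), against 35.7% and 34.5%. In Psmd4 the capitals mark a CCAAT match from -95 to -91 and an interferon element match from -80 to -71, both on the opposite strand. None of the 3 motifs had a match in the windows of Psmb10 and Psmd11. The median log2 fold change of the 5 genes with TGACNNNGC was 0.42, 0.43, -0.07 and 0.04 in HCD-weaned males, HCD-weaned females, RD-weaned males and RD-weaned females, and that of the genes without it was 0.33, 0.39, -0.19 and -0.02. For the 3 genes with the interferon element these medians were 0.67, 0.64, -0.20 and 0.15, against 0.33, 0.39, -0.15 and -0.02 without it. For genes with CCAAT they were 0.34, 0.36, -0.20 and -0.01, against 0.35, 0.41, -0.16 and 0.01. These splits are descriptions without a test. A match describes letters in the window, not binding.

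Among HCD-weaned females, Psmb10 and Psmb7 passed the test and were higher in offspring of HCD dams. They are an inducible subunit and the constitutive trypsin-like subunit that it replaces. Psmb10 (chromosome 8, 105935735 to 105938444, GRCm38) had a log2 fold change of 1.14 ± 0.30 (SE) or 2.20-fold, per the authors' deposited table (Wald test of DESeq, Benjamini-Hochberg adjusted p = 0.0231). Psmb7 (chromosome 2, 38588036 to 38644087) stood at 0.81 ± 0.23, or 1.76-fold, there (DESeq adjusted p = 0.0408). These are 2 of 47 tested proteasome genes, where 1.52% of all 15043 tested genes were called in either direction and 0.984% were called higher. At an unadjusted p under 0.05 there were 19 positive proteasome genes and 1 negative, where 13.3% of all genes passed in either direction and 7.10% on the positive side. With the trend of the Wald statistic over transcript length and GC content removed, both genes had an adjusted p of 0.261. With Wald statistics divided by their robust spread over all genes, the adjusted p was 0.105 for Psmb10 and 0.151 for Psmb7. Annotated genes on the opposite strand overlap both loci: the antisense gene Gm16156 covers 2710 bases of Psmb10, and Nek6 covers 6571 bases of Psmb7. The library kit keeps strand, while the strand setting of the counting is not given in the sources used here. In the authors' deposited table Nek6 had a log2 fold change of -0.14 ± 0.28 in HCD-weaned females.

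In HCD-weaned males no proteasome gene passed the test (0 of 48, DESeq Wald test), where 0.163% of all 15384 genes tested were called. At an unadjusted p under 0.05 there were 7 positive and 0 negative proteasome genes, where 8.14% of all genes passed that mark in either direction and 3.42% on the positive side. Psmb5, the chymotrypsin-like cutting subunit (chromosome 14, 54614119 to 54618022), had the largest log2 fold change, 1.06 ± 0.30, or 2.09-fold, which the authors' deposited table gives an adjusted p of 0.124 (DESeq). It was also the largest in RD-weaned females, at 0.72 ± 0.27 (adjusted p = 0.428, DESeq), and the authors' deposited tables give it 0.82 ± 0.30 for HCD-weaned females (adjusted p = 0.137) and 0.37 ± 0.42 for RD-weaned males. Psmb5 ranked within the highest 3 log2 fold changes of the tested proteasome genes in each table as signed here and passed the test in 0 of the 4. Its values in RD-weaned mice would be negative if those tables were turned.

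Direction was shared across most proteasome genes in HCD-weaned mice, and by fewer of them in RD-weaned mice. The log2 fold change was positive for 44 of 48 in HCD-weaned males and for 42 of 47 in HCD-weaned females, where 48.9% and 54.4% of all tested genes were positive. Their medians were 0.36 and 0.42, against -0.01 and 0.04 over all genes. In RD-weaned males 16 of 44 were positive and 28 negative, with a median of -0.16, where 50.0% of all genes were positive with a median of 0.00. In RD-weaned females 27 of 47 were positive with a median of 0.02, where 50.9% of all genes were positive with a median of 0.01. In these RD-weaned comparisons 0 of 44 and 0 of 47 proteasome genes were called by the DESeq Wald test, against 0.0851% and 0.346% of all genes. At an unadjusted p under 0.05 there were 0 and 1 of them, the 1 being Psmb5, against 4.30% and 6.16% of all genes in either direction. Psmb1 and Psmd7 have no p in the authors' deposited table of RD-weaned males, where they stand at -0.07 ± 0.45 and 0.45 ± 0.24.

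**Figure D1:**
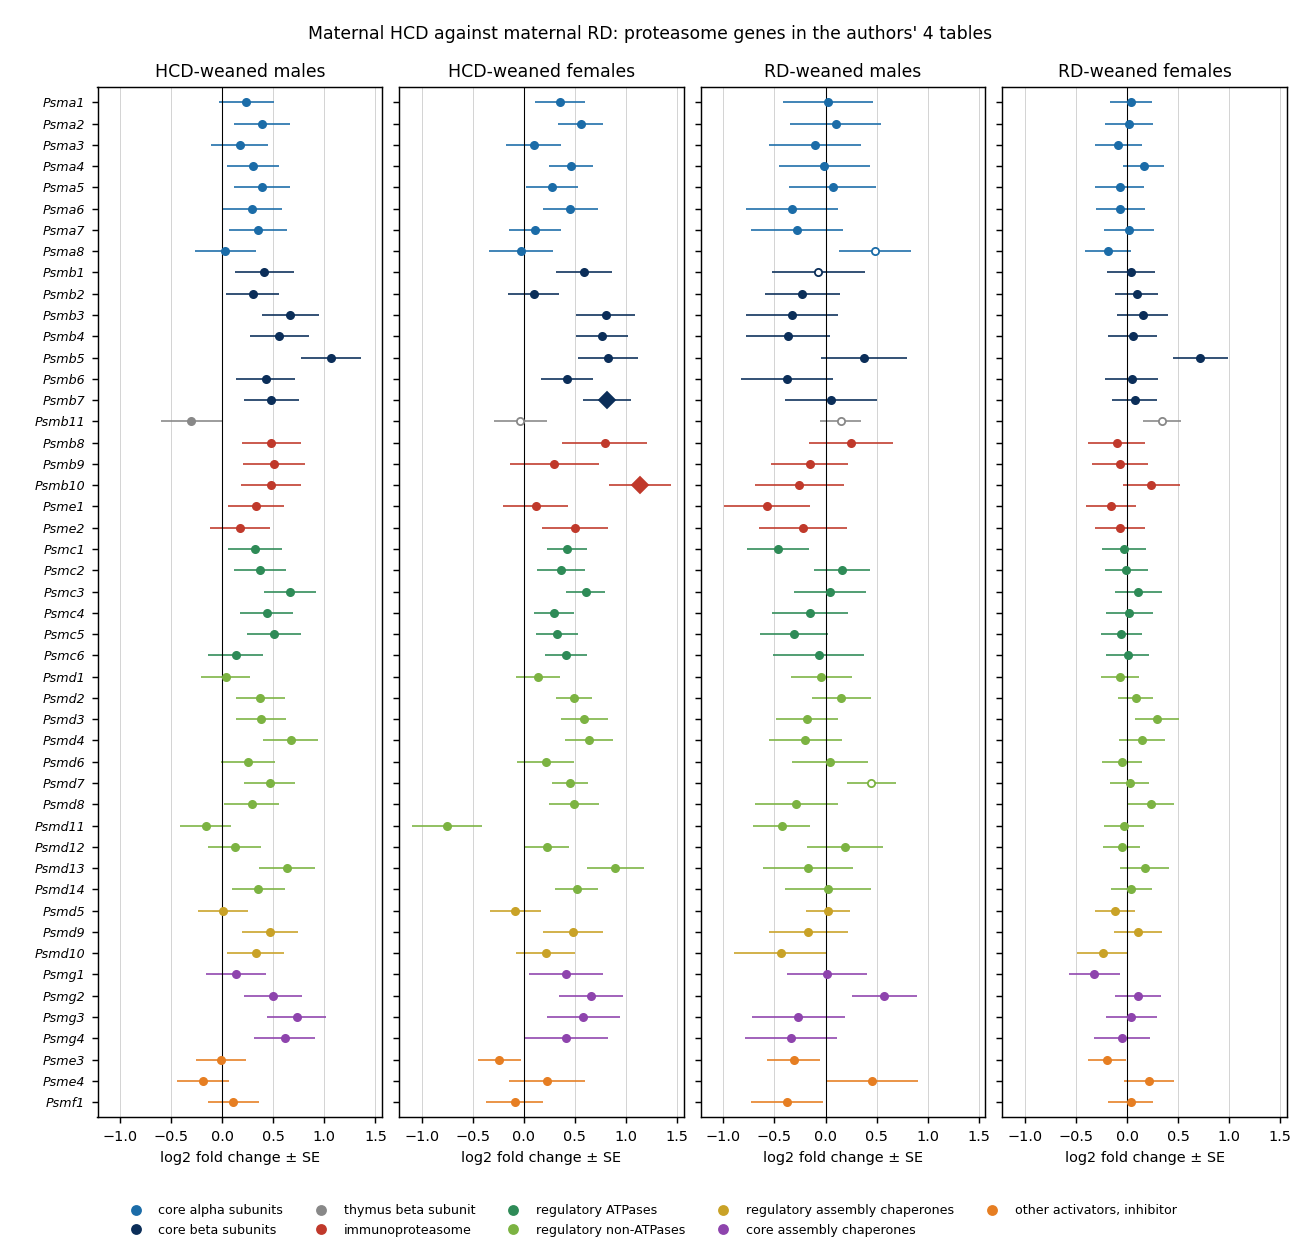
Log2 fold change of each of the 48 proteasome genes (rows, colour by role) in the 4 comparisons of maternal diet (panels), from the authors' tables; bars are ± 1 SE, open circles have no adjusted p and diamonds passed the test. Most points lie right of 0 in both HCD-weaned panels, with the diamonds at Psmb10 and Psmb7 in females. The points of RD-weaned females spread around 0 apart from Psmb5, and in RD-weaned males 28 of 44 tested genes lie left of 0.

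Fold changes also moved with transcript length in these tables, and proteasome transcripts are short. Over all genes, Spearman's rho between log2 fold change and the length of the principal GENCODE transcript was -0.56 in HCD-weaned males (15283 genes), -0.45 in their female counterparts (14948), 0.11 in RD-weaned males (12852) and -0.22 in females weaned onto RD (14929). The points of a table share its libraries, so these are descriptions. The median length was 1490 bases for the 48 proteasome genes and 2997 bases for all genes tested in HCD-weaned males. With the fitted trend over length and GC content removed, the proteasome median was 0.22 in HCD-weaned males and 0.26 in HCD-weaned females, with 42 of 48 and 41 of 47 genes positive, where 51.9% and 54.0% of all genes were. It became -0.10 in RD-weaned males, with 14 of 44 positive, and -0.02 in RD-weaned females, with 20 of 47 positive, where 52.1% and 51.8% of all genes were. What moves fold changes with length was not tested.

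**Figure D2:**
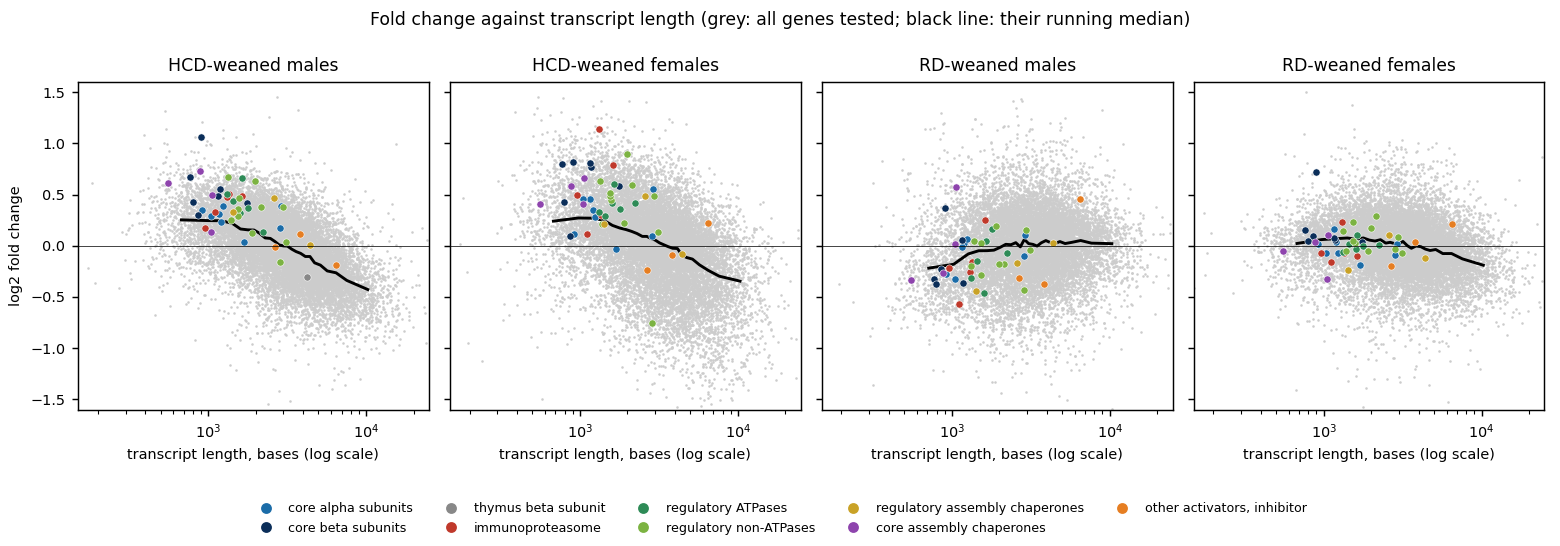
Log2 fold change against transcript length in bases (log scale) for all genes tested (grey) and the proteasome genes (colour by role), with the running median of all genes as a black line, in the 4 comparisons. The line falls with length in both HCD-weaned panels, from above 0 where most proteasome genes lie to below 0, and most coloured points sit above it there.

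The constitutive beta subunits had the largest median of the role groups in HCD-weaned females. All 7 were positive in both HCD-weaned comparisons, with medians of 0.48 in males and 0.77 in females. Only Psmb7 of these passed the DESeq test, in HCD-weaned females, where 1.52% of all genes did. An unadjusted p under 0.05 was met by 2 in males and 5 in females, where 3.42% and 7.10% of all genes met it on the positive side. For Psmb4, a non-cutting subunit, the authors' deposited table gives 0.77 ± 0.25 in HCD-weaned females (DESeq adjusted p = 0.0917). Psmb6, the caspase-like subunit, had 0.42 ± 0.29 and 0.43 ± 0.25 in HCD-weaned males and females per the authors' deposited tables, with -0.38 ± 0.45 and 0.04 ± 0.26 in RD-weaned males and females. In RD-weaned males the 6 tested had a median of -0.28, and in RD-weaned females all 7 were positive with a median of 0.07. Once the length and GC trend was removed, the medians were 0.33, 0.52, -0.12 and 0.05 in the order HCD-weaned males, HCD-weaned females, RD-weaned males, RD-weaned females.

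The alpha subunits, which form the outer rings and the gate, had smaller values. Their medians were 0.30, 0.31, -0.01 and -0.03 in that order. Of the 8, all were positive in HCD-weaned males and 7 in HCD-weaned females. The 1 negative value was that of the sparsely counted Psma8, -0.03 ± 0.32 in the authors' deposited table of HCD-weaned females. In each comparison 0 alpha subunits passed the DESeq test, and 2 in HCD-weaned females and 0 elsewhere had an unadjusted p under 0.05. Over all genes 8.14%, 13.3%, 4.30% and 6.16% had one, in the same order.

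Core and regulatory particle showed like medians. The core genes, alpha and beta without the immunoproteasome, had medians of 0.37 (16 tested) and 0.45 (15 tested) in HCD-weaned males and females. The 20 Psmc and Psmd genes, which include the 3 chaperones of regulatory particle assembly, had 0.36 and 0.42. In RD-weaned males and females the core stood at -0.10 (13 tested) and 0.04 (15 tested). The Psmc and Psmd genes stood there at -0.15 (19 tested) and 0.01 (20 tested). Genes of 1 particle share the same libraries, so no test between the classes was made.

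All 6 ATPases, the ring that unfolds the substrate, were positive in both HCD-weaned comparisons, with medians of 0.40 in males and 0.39 in females. Psmc3 was the highest, at 0.66 ± 0.26 (adjusted p = 0.473) in males and 0.61 ± 0.19 (adjusted p = 0.0716) in females in the authors' deposited tables (DESeq). In RD-weaned mice it stood at 0.05 ± 0.35 and 0.11 ± 0.23. Psmc1 had the lowest ATPase value, -0.47 ± 0.30, in the authors' deposited table of RD-weaned males.

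Among the 11 non-ATPase subunits, which bind ubiquitin chains, remove them and hold the lid together, 10 were positive in each HCD-weaned comparison. Psmd13, a lid subunit (chromosome 7, 140881968 to 140898643), had 0.89 ± 0.28 in HCD-weaned females (adjusted p = 0.0652) and 0.64 ± 0.28 in HCD-weaned males (adjusted p = 0.536) in the authors' deposited tables (DESeq). The ubiquitin receptor Psmd4 stood at 0.67 ± 0.27 and 0.64 ± 0.24 in HCD-weaned males and females in those deposited tables. Psmd3 and Psmd8 were, with Psmb5, the 3 proteasome genes with the highest statistics in RD-weaned females, at 0.29 ± 0.21 and 0.23 ± 0.23 in the authors' deposited table.

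Psmd11 was the exception in both HCD-weaned comparisons. This lid subunit (chromosome 11, 80428615 to 80473248) had a log2 fold change of -0.75 ± 0.34 among HCD-weaned females, per the authors' deposited table, with an unadjusted p of 0.0266 and an adjusted p of 0.282 (DESeq). The other deposited tables of the authors give -0.16 ± 0.25 in HCD-weaned males, and -0.43 ± 0.28 and -0.03 ± 0.19 in RD-weaned males and females. Its transcript has 2848 bases, longer than most of the class, and with the length and GC trend removed its values were -0.13, -0.73, -0.43 and -0.02 in the same order. Per kilobase it was also the least abundant non-ATPase subunit, with a mean normalized count of 359 per kilobase in HCD-weaned males.

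Chaperones of core assembly, which help the rings form and do not stay in the finished particle, were positive for 4 of 4 genes in both HCD-weaned comparisons, with medians of 0.55 in males and 0.50 in females. Psmg3 had 0.73 ± 0.29 in HCD-weaned males in the authors' deposited table (DESeq adjusted p = 0.491). Psmg2 had the highest value of all proteasome genes in RD-weaned males, 0.57 ± 0.32, and Psmg1 had the lowest in RD-weaned females, -0.32 ± 0.25, in the authors' deposited tables. Of the 3 chaperones of the regulatory particle, 3 were positive in HCD-weaned males and 2 in HCD-weaned females, with medians of 0.33 and 0.21. Psmd5 had the lowest values of these, 0.01 ± 0.25 and -0.08 ± 0.25, in the authors' deposited tables. Psmd9 had the highest there, 0.47 ± 0.27 and 0.48 ± 0.29. Psmd10 stood at -0.24 ± 0.25 in RD-weaned females.

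The other activators and the inhibitor Psmf1 had no common direction, with medians of -0.01, -0.09, -0.31 and 0.03. Psme3, the nuclear activator that acts without ubiquitin, was negative in all 4 of the authors' deposited tables, at -0.01 ± 0.24, -0.24 ± 0.21, -0.31 ± 0.26 and -0.20 ± 0.19. Psme4, the large activator linked to histone turnover, stood at -0.19 ± 0.25 in HCD-weaned males and 0.45 ± 0.45 in RD-weaned males in those deposited tables, and at 0.14 in HCD-weaned males with the trend removed, a change of sign.

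All 5 immunoproteasome genes were positive in HCD-weaned males and in HCD-weaned females, with medians of 0.48 and 0.50, and 1 of 5 was positive in each RD-weaned comparison, with medians of -0.22 and -0.07. Psmb10 alone passed the test, in HCD-weaned females, where 1.52% of all genes did. Psmb8, which replaces Psmb5, had 0.48 ± 0.28, 0.79 ± 0.42, 0.25 ± 0.41 and -0.10 ± 0.28 in HCD-weaned males, HCD-weaned females, RD-weaned males and RD-weaned females in the authors' deposited tables. Psmb9, which replaces Psmb6, had 0.51 ± 0.31, 0.30 ± 0.44, -0.15 ± 0.37 and -0.07 ± 0.27 there. Psmb10 outside HCD-weaned females had 0.48 ± 0.30 in HCD-weaned males, and -0.26 ± 0.44 and 0.24 ± 0.28 in RD-weaned males and females, in those deposited tables. The cap genes Psme1 and Psme2 had 0.12 ± 0.32 and 0.50 ± 0.32 in HCD-weaned females, and Psme1 had the lowest value of all proteasome genes in RD-weaned males, -0.57 ± 0.42, in the authors' deposited tables.

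Per transcript length, the inducible subunits were less abundant than the subunits they replace. In the 4 deposited tables, taken in the order above, the mean normalized count per kilobase of Psmb8 was 6.96%, 4.82%, 6.42% and 8.54% of that of Psmb5. Psmb9 reached 0.796%, 0.875%, 0.826% and 0.800% of Psmb6. Psmb10 was far nearer its partner, at 29.4%, 29.7%, 28.3% and 34.6% of Psmb7. Psmb6 was the most abundant proteasome transcript per kilobase in HCD-weaned males, at 10216, and Psma8 and Psmb11 the least, at 6.51 and 2.70. Each table was normalized separately, so levels are compared within a table only.

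**Figure D3:**
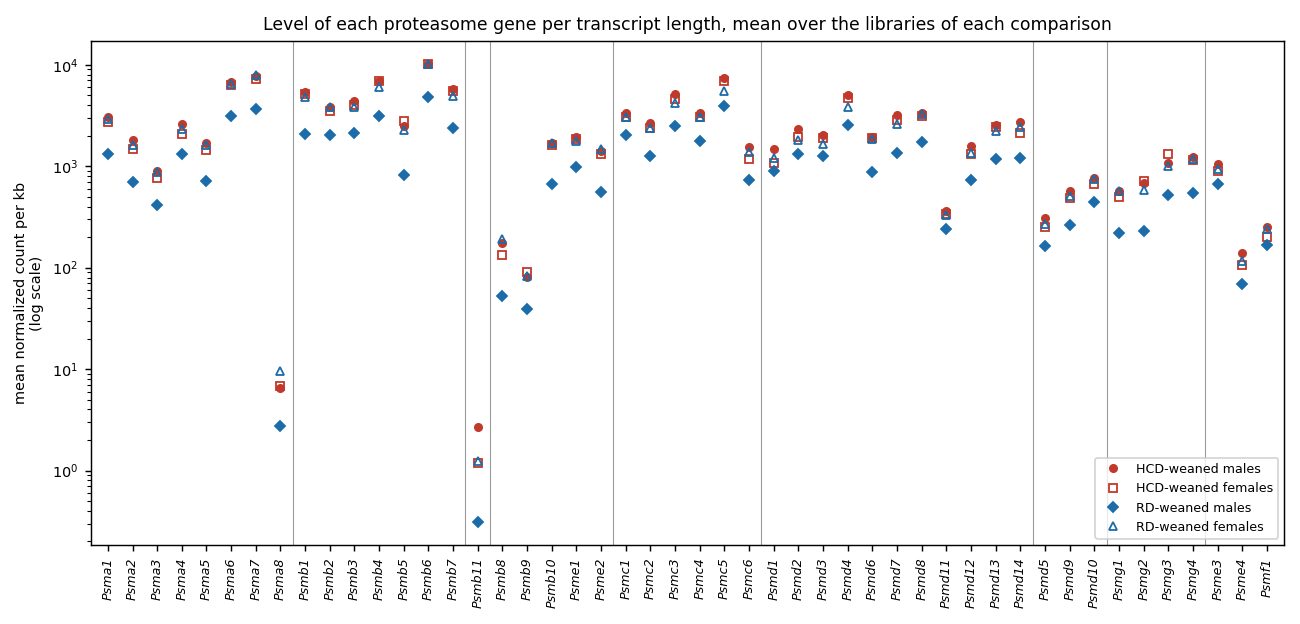
Mean normalized count per kilobase of transcript (log scale) of each proteasome gene in the 4 comparisons, ordered by role, with grey lines between roles; each point is the mean over all libraries of a comparison. Psma8 and Psmb11 lie far below the rest, Psmb8 and Psmb9 lie below the constitutive beta subunits, and Psmb10 lies near Psme1; the lower diamonds of RD-weaned males come from a table normalized on its own.

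Males and females weaned onto HCD ranked the proteasome genes alike, as they ranked other genes. Over 47 genes tested in both, Spearman's rho between the sexes' log2 fold changes was 0.73, against 0.65 over 14947 genes. After removal of the length and GC trend it was 0.65 for the proteasome genes and 0.52 for all. Both values were positive for 41 of 47 proteasome genes and for 38.4% of all genes. Psmb3, Psmb5, Psmc3, Psmd13 and Psmd4 were positive with an unadjusted p under 0.05 in both sexes, 5 genes, where 313 of 14947 genes (2.09%) were. Between RD-weaned males and females rho was 0.15 over 44 proteasome genes and 0.10 over 12636 genes. The genes of a table share its libraries, so these are descriptions without a test.

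**Figure D4:**
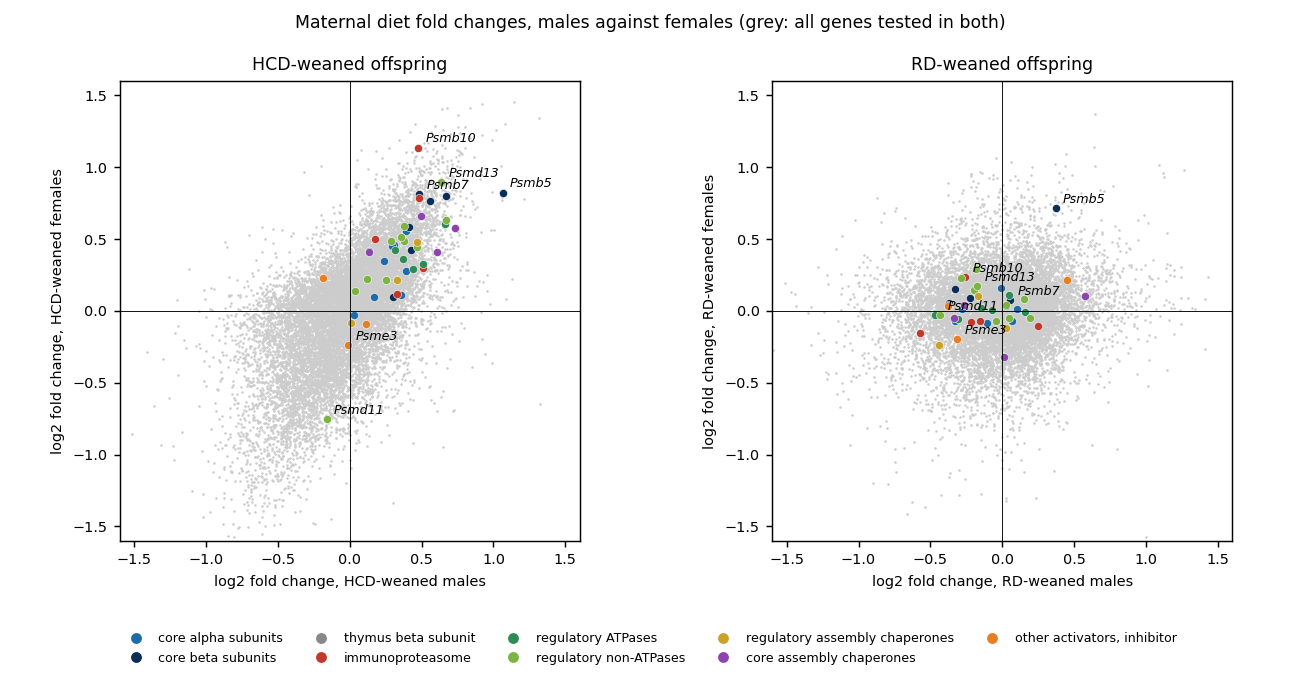
Log2 fold change in females (vertical) against males (horizontal) for HCD-weaned and RD-weaned offspring, with all genes tested in both as grey points and proteasome genes coloured by role. In HCD-weaned mice 41 of 47 proteasome genes lie in the upper right with Psmd11 at the lower left. In RD-weaned mice they spread around 0, with Psmb5 apart in females.

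Over the 44 genes tested in all 4 comparisons, 8 were positive in each (18.2%, against 12.7% of 12604 genes): Psma1, Psma2, Psmb5, Psmb7, Psmc3, Psmd2, Psmd14 and Psmg2. Psmd11 and Psme3 were negative in each (4.55%, against 11.9%). These counts depend on how the RD-weaned tables are signed. With the males' table turned, 15 genes were positive in each (34.1%, against 13.1% of all genes), with the females' table turned 6 (13.6%, against 6.47%), and with both turned 10 (22.7%, against 6.70%). In each of these 3 readings 0 proteasome genes were negative in each, against 10.2%, 5.51% and 7.06% of all genes.

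No proteasome gene's maternal diet difference was shown to differ between sexes or between postnatal diets. The difference of fold changes was divided by its standard error, with Benjamini-Hochberg adjustment over all genes tested in both tables, and 0 proteasome genes passed in each of 4 such differences, where 0.00791% of all genes did between the sexes of RD-weaned mice, 0.00775% between postnatal diets in males, 0.00685% between postnatal diets in females and 0.00% between the sexes of HCD-weaned mice. The smallest adjusted p, 0.907, belonged to Psmb7 in HCD-weaned against RD-weaned females, a difference of 0.74 ± 0.32. At an unadjusted p under 0.05 there were 4 genes in that difference, Psmb10 (0.90 ± 0.41), Psmb7, Psmd13 (0.72 ± 0.37) and Psmb4 (0.71 ± 0.35), against 5.00% of all genes. In the other differences there were 0, against 0.642% of all genes between HCD-weaned sexes, 3.05% between RD-weaned sexes and 3.84% between postnatal diets in males. The fold change was larger in HCD-weaned than in RD-weaned males for 40 of 44 genes, with a median difference of 0.50, where 49.3% of all genes were. Between HCD-weaned and RD-weaned females it was larger for 44 of 47 genes, with a median of 0.38, where 52.7% were. With the sign of the RD-weaned tables turned, the difference was positive for 34 of 44 genes in males, with a median of 0.26, where 47.4% of all genes were, and for 40 of 47 in females, with a median of 0.42, where 52.0% were. Psmb5 then passed the test of the difference in females, 1 proteasome gene, as did 186 of all 14603 genes. In males 0 passed, against 4 of 12910.

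Genes that work with the proteasome were read from lists of the same pathway. Of 12 partners outside the symbol rule, 1 passed the DESeq Wald test in HCD-weaned females, where 1.52% of all genes did, and 0 elsewhere. At an unadjusted p under 0.05 there were 4 positive and 1 negative in HCD-weaned females, against 13.3% of all genes in either direction. There was 1 in HCD-weaned males and 0 in RD-weaned males and females, against 8.14%, 4.30% and 6.16% of all genes. The gene that passed was Shfm1, named Sem1 in newer annotation, the smallest lid subunit, which rose by 1.01 ± 0.25 in the authors' deposited table (DESeq adjusted p = 0.0101). It had 0.75 ± 0.27 in HCD-weaned males (adjusted p = 0.425). With the trend removed its adjusted p in HCD-weaned females was 0.0925. The partners' medians were 0.16, 0.40, -0.03 and 0.07 in the order HCD-weaned males, HCD-weaned females, RD-weaned males, RD-weaned females.

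The list of ubiquitin supply and shuttling has 18 genes in the tables, of which 11 were positive and 2 were called higher in HCD-weaned females. Of all genes tested there, 54.4% were positive and 0.984% were called higher. Stub1, a ubiquitin ligase paired with heat shock chaperones, was 1 of those 2, at 0.91 ± 0.24 per the authors' deposited table (DESeq adjusted p = 0.0229). In the other comparisons 0 of the list passed. At an unadjusted p under 0.05 there were 2, 4, 1 and 0 genes in HCD-weaned males, HCD-weaned females, RD-weaned males and RD-weaned females. Over all genes the shares were 8.14%, 13.3%, 4.30% and 6.16%. Stub1 had 0.53 ± 0.27 in HCD-weaned males (adjusted p = 0.614), and -0.48 ± 0.33 and 0.16 ± 0.23 in RD-weaned males and females, in the authors' deposited tables. The list's medians were 0.16, 0.13, -0.02 and 0.00 in the same order as above.

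The 10 genes of the Nfe2l1 route, through which cells raise proteasome transcription, gave 0 calls in each comparison by the DESeq Wald test, and medians of -0.08, 0.05, -0.01 and 0.02. At an unadjusted p under 0.05 there were also 0 in each, against 8.14%, 13.3%, 4.30% and 6.16% of all genes. Nfe2l1 itself stood at -0.01 ± 0.24, 0.00 ± 0.20, -0.27 ± 0.32 and 0.00 ± 0.18 in the authors' deposited tables. Ddi2, the protease that activates Nfe2l1 protein, had -0.54 ± 0.32 in HCD-weaned males and -0.49 ± 0.29 in RD-weaned females in those deposited tables. The small Maf gene Mafg had -0.75 ± 0.39 in HCD-weaned females there (DESeq adjusted p = 0.395).

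The 12 genes of antigen presentation and interferon signalling also gave 0 calls in each comparison by the DESeq Wald test. At an unadjusted p under 0.05 there were 1, 3, 0 and 0, against 8.14%, 13.3%, 4.30% and 6.16% of all genes. The medians were 0.06, 0.20, -0.13 and 0.04. The class I gene H2-D1 had 0.90 ± 0.28 in HCD-weaned females (DESeq adjusted p = 0.0711), and the peptide transporter Tap2 had 0.66 ± 0.27 in HCD-weaned males, in the authors' deposited tables. Irf1 had -0.70 ± 0.42 in RD-weaned males and Stat2 -0.29 ± 0.23 in RD-weaned females there.

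Markers of cell types and neighbouring tissues moved in the same tables. Over all genes tested, 0.163%, 1.52%, 0.0851% and 0.346% were called in HCD-weaned males, HCD-weaned females, RD-weaned males and RD-weaned females. At an unadjusted p under 0.05 the shares were 8.14%, 13.3%, 4.30% and 6.16%. Of 10 markers of hypothalamic neurons, each with a mean above 0 in every table, 0 were positive in HCD-weaned males, with a median of -1.29 and 5 called lower, Pmch, Hcrt, Oxt, Sim1 and Fezf1. In HCD-weaned females 1 of 7 tested was positive with a median of -0.43, 0 calls and 2 at an unadjusted p under 0.05. In RD-weaned mice 0 of 4 were positive in males (median -0.18) and 0 of 9 in females (median -0.30), with 0 calls each by the DESeq Wald test and 0 and 1 at an unadjusted p under 0.05. Their summed mean normalized count was 6279, 5839, 2370 and 10725 in the 4 deposited tables. Each table was normalized separately, so these sums and those of the microglial markers are not compared between tables. Of 8 microglial markers 4, 6, 3 and 8 were positive, with medians of 0.01, 0.34, -0.03 and 0.33, 0 calls by the DESeq Wald test (0, 1, 0 and 2 at an unadjusted p under 0.05) and summed mean normalized counts of 17868, 15596, 8396 and 16074. In RD-weaned females 7 of 7 markers of cortex and hippocampus were positive with a median of 0.94 and 4 at an unadjusted p under 0.05. Of 6 choroid plexus markers 5 were positive there, with a median of 0.76 and Kl and Kcnj13 called higher. In the same mice 0 of 7 thalamic markers were positive, with Calb2 called lower. In RD-weaned males 8 of 8 thalamic markers were positive with a median of 0.45. The neuronal marker Snap25 was called higher there, in a list with 4 of 6 positive. In HCD-weaned males 0 of 6 meningeal markers were positive, with a median of -0.58 and Ogn called lower. In HCD-weaned females the neuronal marker Tubb3 and the thalamic marker Ramp3 were called higher and the astrocyte marker Aqp4 lower. Of their lists, 4 of 6 neuronal, 4 of 8 thalamic and 2 of 6 astrocyte markers were positive there. The medians of these lists were 0.13, -0.10 and -0.33. The part of tissue composition in the proteasome values was not tested, and in bulk tissue fewer cells of a type and less RNA per cell cannot be told apart.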

How the data were processed

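Poly(A) RNA from hypothalamus was sequenced with a stranded mRNA kit, per the labels' protocols. DESeq (no version) and build mm10 come from the submitters' processing notes; for aligner, counter, annotation and strand setting the sources used here give nothing. The values are the authors' 4 deposited comparison tables: the mean normalized count (a signal over the libraries of a comparison) and the log2 fold change with its standard error, per the file headers. The Wald statistic (a score) and the p-value with its Benjamini-Hochberg adjustment over the genes tested are likewise the authors' deposited values. Genes with a mean under 10 have no adjusted p there, nor do 1554 further genes of RD-weaned males and 342 of RD-weaned females. Fold changes appear shrunken toward 0: the largest standard error was 0.33, 0.45, 0.45 and 0.30 in the 4 tables. Differences between tables may therefore be conservative. The mean normalized counts sum to between 1.54e+07 and 2.70e+07 per table. Depth per library is unknown here, since 48 library columns in 8 further deposited files match no label and were not used. The edgeR test planned for counts was therefore replaced by the authors' deposited Wald test.

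From these tables were computed counts and medians over gene lists, differences between comparisons (the difference over the root of the summed squared standard errors, normal reference) and removal of the trend of Wald statistic and log2 fold change with log10 transcript length and GC content (regression splines, 6 degrees of freedom each). Lengths and positions come from GENCODE mouse release 21 (GRCm38), which matched 24054 of 24421 symbols. Scripts were tested on simulated data. Python 3.11.15, pandas 2.3.3, scipy 1.17.1 and statsmodels 0.14.6 were used. The call threshold was an adjusted p of 0.05. Genes named were all called members, the 3 highest and 3 lowest statistics per comparison, the inducible subunits and those they replace, genes near the minimum, and per pathway list the called genes and the strongest statistic. The other genes named as examples were chosen after their values were seen. The members and lists were chosen with earlier results of these data known. Of the list symbols, Paaf1 is not in the tables, Sem1, Ecpas and Ufd1 stand there as Shfm1, AI314180 and Ufd1l, and Ddi2 is in 2 lists. Overlap with another annotated gene affects 22 of the 48 members, 18 of them on the opposite strand, and near-copies such as Psme2b share sequence with members. As an exception, results for 1 gene of the ubiquitin list are not reported here.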

Additional observations from a re-analysis of the deposited data

How the results depend on the processing

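The count of proteasome genes called in HCD-weaned females, 2, became 5 at an adjusted p under 0.10, 1 without a filter on low values, 1 with fold changes centred on the median, 0 with the Wald statistic divided by its robust spread and 0 with the length and GC trend removed; the cause was not tested. The median log2 fold change in RD-weaned females, 0.02, became -0.018 with the trend removed. The count of genes whose difference passed between HCD-weaned and RD-weaned females went from 0 to 1 with the sign of the RD-weaned table turned. Of the alternatives for single genes, 418 values kept their direction, their side of the threshold and a value within their error, 3 moved by more than their error, 6 lost their call and 7 changed sign. Those 7 values were not called, and each changed sign with the length and GC trend removed: in HCD-weaned males Psma8 to -0.029, Psme2 to -0.070, Psme4 to 0.14 and Psmg1 to -0.093, in HCD-weaned females Psmd5 to 0.060 and Psme1 to -0.15, and in RD-weaned males Psmd5 to -0.013. Turning the RD-weaned tables for signs and for medians of differences was chosen after seeing the data. With the females' table alone turned, the median difference between RD-weaned sexes, males minus females, moved from -0.17 to -0.08. No paired analysis was possible because the names of the library columns match no sample's label. For the same reason the fits without each replicate, with DESeq2 or with another normalization were not run, so no statement can be made on the part of a single library, and the precision is limited by 3 or 4 samples a group.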
